A study of Oryctolagus cuniculus with 9 samples.

Results

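The genes described here encode the heat shock proteins and their DNAJ cochaperones, the machinery that folds, refolds and sorts proteins in the cell. They were chosen by symbol: all listed genes of the HSPA, HSPB, HSPD, HSPE, HSPH and HSP90 groups and of the DNAJA, DNAJB and DNAJC groups, together with the regulators HSF1, HSF2 and BAG3. HSPA5 and DNAJB9, which belong to the unfolded protein response of the endoplasmic reticulum, were left out. The rule found 53 genes among the 19291 of the table, of which 10 were HSPA, 6 HSPB, 1 HSPH, 1 HSP90, 3 DNAJA, 7 DNAJB and 22 DNAJC genes and 3 regulators. No row carried an HSPD or HSPE symbol, and HSP90B1 was the sole HSP90 row. Other genes of these families had no row under their symbol either, among them HSPA1A, HSPA1B, DNAJB1, DNAJB6, HSPB1 and HSPB2. Nothing below describes these genes. Rows known by an identifier only were not assigned to any gene.

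The measurements come from 9 mRNA libraries of HA-VSMC, a line of cells labelled as rabbit (Oryctolagus cuniculus): 3 controls, 3 libraries of cells kept with 50 nM β-estradiol and 3 with 250 nM β-estradiol. Estradiol is the main estrogen of the ovary, and the series asks how estrogen takes part in adenomyosis. Per the labels' protocols all cells grew in RPMI1640 with fetal bovine serum, estradiol came dissolved in DMSO with sodium hydrogen carbonate, and harvest followed 48 h later. The labels do not say whether controls received the vehicle, tag the controls too with estrogen as the treatment, and name 250 nM as the sole concentration in the treatment protocol. Nor do they say that a group's 3 libraries stem from different cultures. The p-values below are therefore set against the spread among these libraries alone, and that spread may be technical.

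Heat shock proteins of the Hsp70 class bind short hydrophobic stretches of unfolded proteins and release them in a cycle driven by ATP. J proteins, the products of the DNAJ genes, deliver the client and start ATP hydrolysis, and exchange factors such as the Hsp110 and BAG proteins remove the ADP and end the cycle. Hsp90 acts on nearly folded clients, among them the steroid hormone receptors, which it holds together with Hsp70 in a form able to bind hormone. Heat and other protein damage free the transcription factor HSF1 from chaperones, and HSF1 then induces the stress-responsive members.

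Among these genes HSPA8 and HSPA2, which encode cytosolic Hsp70 proteins, fell at 50 nM estradiol relative to the control, by 20.2% and 23.8%. They were 2 of the 48 members with enough counts to be tested, or 4.17%, and none rose; of all 12324 genes tested 3.25% changed, 1.55% upward and 1.70% downward. Changes were called by edgeR's quasi-likelihood test at an adjusted p under 0.05. A different test, limma, on the scale log2(FPKM + 1) called 85 of all genes higher and 223 lower. With edgeR on counts these were 191 and 210, and the same pair of members was called by both. The median log2 fold change of all genes was -0.041 on that scale, against -0.002 on counts. The members' share of calls was thus near that of all genes. At 250 nM against the control none of the 48 passed with edgeR, where 0.308% of all genes did (0.203% higher and 0.105% lower). There 6 members, the sparsely counted HSPA12B among them, had an unadjusted edgeR p under 0.05, or 12.5%, against 8.67% of all genes. DESeq2 called 1 member there, HSPA8, as lower. Between 250 nM and 50 nM none passed with edgeR either, against 0.325% of all genes (0.187% higher and 0.138% lower). In that comparison 4 members had an unadjusted p under 0.05, or 8.33%, against 5.68% of all genes, and DESeq2 called HSPA8 alone, as higher.

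The libraries held 54718407 to 72274464 estimated count units. Of the values from 1 to 12 units, 42.2% were 4, 8 or 12, and 4 units were therefore taken as about 1 fragment. If that holds, depth was roughly 13679602 to 18068616 fragments, but the unit was not checked against reads. The label of a smooth muscle line was checked against 11 smooth muscle markers. ACTA2 (2807 to 3139 CPM), CALD1 and SMTN were abundant, MYH11 was at 26.0 to 40.0 CPM and SYNPO2 at 27.8 to 37.1 CPM. LMOD1 was low at 1.74 to 2.66 CPM, MYOCD at 1.07 to 2.30 CPM and ACTG2 at 0.157 to 0.733 CPM. DES was at 0 in every library, and TAGLN and CNN1 had no row. In the lists of other cell types KRT8 and KRT18 (epithelial), CD68 (leukocyte), MYH6 and TNNI3 (striated muscle) and PDPN (fibroblast) had no row. The sums below leave these genes out. CPM is the count scaled by the effective size of its library. The 6 listed endothelial markers summed to at most 1.004 CPM in any library, the 4 epithelial to at most 0.204 CPM, the 5 leukocyte to at most 0.657 CPM and the 6 striated muscle markers to at most 0.253 CPM; KDR, EPCAM, ITGAM, ACTC1, MYOD1 and MYOG were at 0. The 6 listed fibroblast markers, all detected and dominated by the collagen genes COL1A1 and COL1A2, summed to 23090 to 24104 CPM in the control, 26188 to 27902 CPM at 50 nM and 26628 to 27380 CPM at 250 nM; their part in the results below was not tested. HA-VSMC is also known as the name of a line from human aorta, and the species of the reads was not checked here.

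The members covered a wide range of levels, compared here as the deposited FPKM, which are scaled to gene length. HSPA8, the constitutive cytosolic Hsp70, was highest with a mean of 806 FPKM (671 to 924 over the 9 libraries). HSP90B1, the Hsp90 of the endoplasmic reticulum, followed with 508 FPKM (488 to 534), and the ranges of the pair did not meet. Because the species of the reads was not checked, whether this order of levels also follows how well each gene's reads align to the rabbit genome was not tested. HSPA9, the Hsp70 of the mitochondrial matrix, had 159 FPKM (152 to 170.5), and HSPA4, an Hsp110 exchange factor, 151 FPKM (146 to 159), so that their ranges overlapped. The most abundant J protein gene was DNAJB4 with 73.4 FPKM (62.3 to 89.1), then DNAJC5 with 56.0 and DNAJC7 with 52.9 FPKM, whose ranges overlapped each other. At the low end, HSPA6, HSPA12B and HSPB7 averaged under 1 FPKM, and DNAJB13, DNAJC5B and DNAJC5G had no count in any library. DNAJB7 and HSPB9 had at most 8 units in a library, or about 2 fragments if 4 units are 1 fragment. Together with the 3 genes at 0 they were the 5 members left untested.

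**Figure D1:**
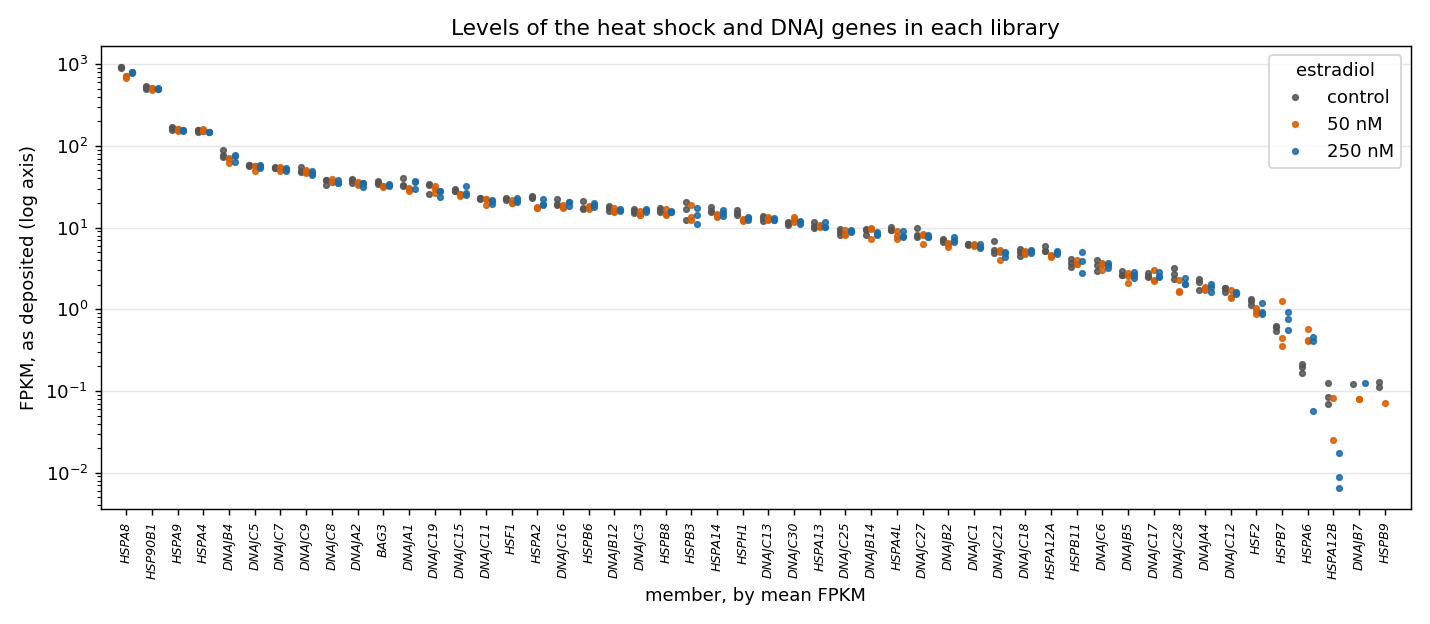
Deposited FPKM (log axis) of the 50 members with a count in any library, ordered by their mean; each point is 1 library, coloured by group, and values of 0 are not drawn. HSPA8 and HSP90B1 lie above all others, and for most members the 3 groups lie on top of each other.

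HSPA8 makes the Hsc70 protein, which folds new chains, strips clathrin coats from vesicles and carries proteins to the lysosome. It had 1792, 1841 and 1828 CPM in the control libraries, 1486, 1399 and 1471 CPM at 50 nM and 1628, 1598 and 1650.2 CPM at 250 nM. No library of any group overlapped with another group: the controls were highest, 50 nM lowest and 250 nM between. At 50 nM HSPA8 fell to 1452 ± 46.7 CPM, against 1820.2 ± 25.6 CPM in the control (SD, n = 3 libraries each), a log2 fold change of -0.33 ± 0.04 (SE, edgeR adjusted p = 0.00066). At 250 nM the mean was 1625 ± 26.4 CPM, and the log2 fold change from the control was -0.16 ± 0.04 with an unadjusted 95% interval of -0.26 to -0.07 (edgeR adjusted p = 0.193; DESeq2 adjusted p = 0.0317). Set against 50 nM, the log2 fold change at 250 nM was 0.16 ± 0.04 (interval 0.07 to 0.26, edgeR adjusted p = 0.257; DESeq2 adjusted p = 0.039). In these comparisons DESeq2 called 1.14% (0.625% higher and 0.511% lower) and 0.804% (0.390% higher and 0.414% lower) of the 12318 genes given an adjusted p. In bulk RNA, fewer cells of a type and less RNA per cell cannot be told apart.

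HSPA2 encodes an Hsp70 close in sequence to Hsc70, best known for its role in sperm development in mice and also made in somatic cells. Its level was 46.1, 48.4 and 44.7 CPM in the control, 36.0, 35.2 and 34.9 CPM at 50 nM and 44.8, 39.2 and 38.1 CPM at 250 nM. The 50 nM libraries lay below all others, while 1 library at 250 nM reached the lowest control. HSPA2 fell at 50 nM (log2 fold change -0.39 ± 0.07, edgeR adjusted p = 0.00591), to 35.4 ± 0.57 CPM, against 46.4 ± 1.90 CPM in the control. At 250 nM its log2 fold change was -0.19 ± 0.07 (interval -0.34 to -0.04, edgeR adjusted p = 0.407), and at 250 nM against 50 nM it was 0.20 ± 0.07 (interval 0.05 to 0.35, edgeR adjusted p = 0.568). The ratio of HSPA8 to HSPA2 was 38.0 to 40.9 in the control, 39.7 to 42.1 at 50 nM and 36.4 to 43.3 at 250 nM. The ratios of the 3 groups overlapped, and whether reads of these similar genes, or of further copies of HSPA8, were shared in the counting was not tested. Both calls at 50 nM held in each of the 21 alternatives tried, with log2 fold changes of -0.38 to -0.30 for HSPA8 and -0.44 to -0.36 for HSPA2.

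**Figure D2:**
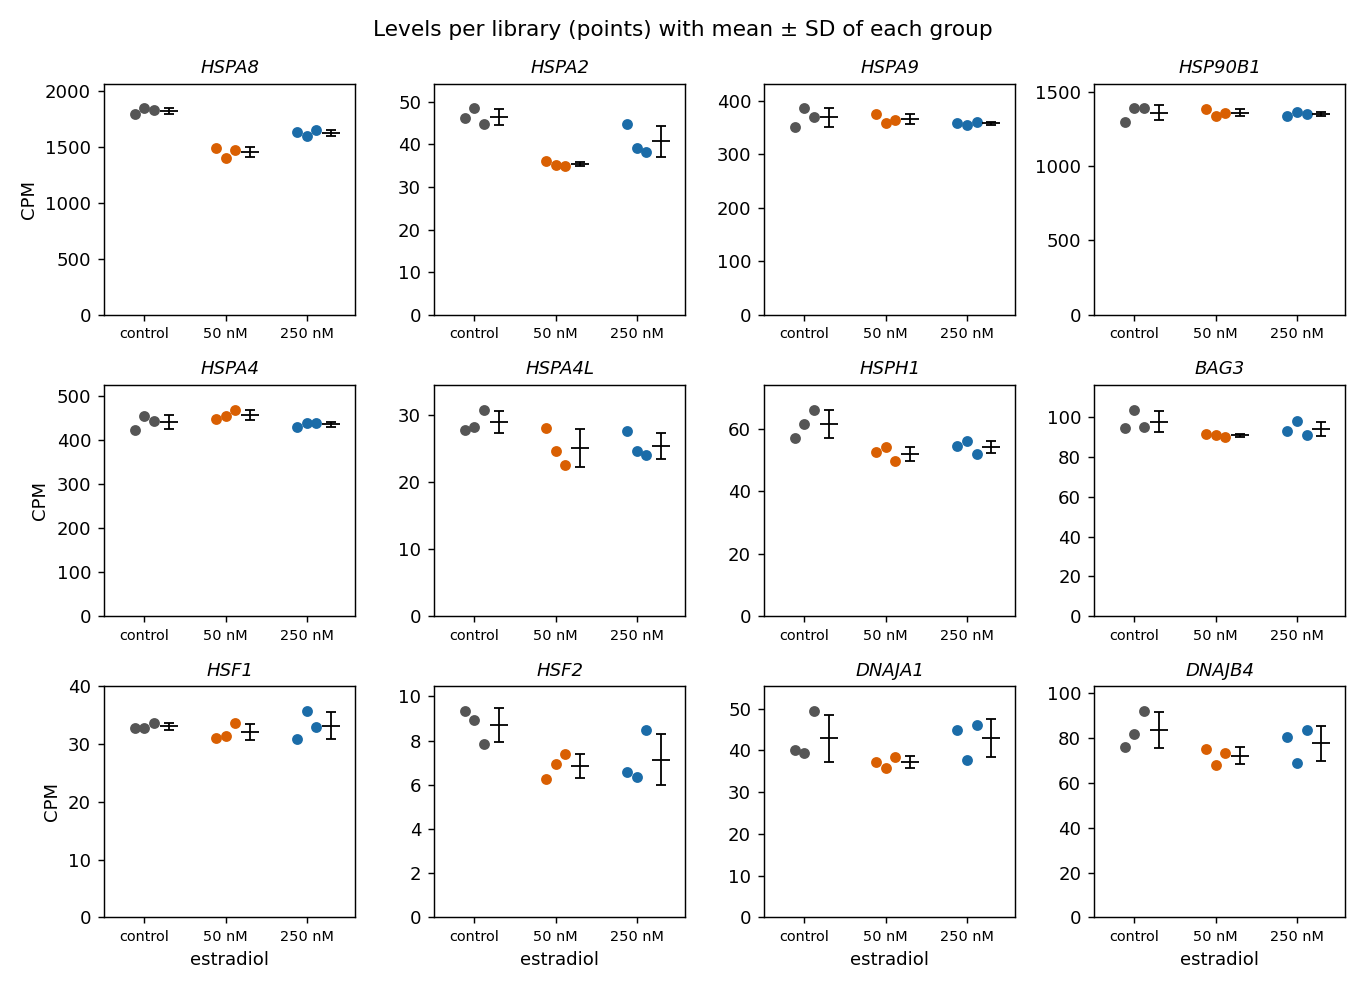
CPM (axes start at 0) of 12 members in each library, replicates 1 to 3 from left to right within a group, with the group mean ± SD (n = 3) beside them. HSPA8 and HSPA2 separate the 50 nM libraries from the control, and their 250 nM means lie between, whereas HSPA9, HSP90B1 and HSF1 have overlapping groups.

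The other HSPA genes did not pass in any comparison. HSPA9 had 359 to 376 CPM at 50 nM, against 352 to 386 CPM in the control, with overlapping groups and an interval of the log2 fold change of -0.12 to 0.10. HSPA13, an Hsp70-like protein of the endoplasmic reticulum, had a log2 fold change of 0.02 ± 0.07 at 50 nM and also at 250 nM. HSPA14, which works at the ribosome, had -0.18 ± 0.08 at 50 nM (edgeR adjusted p = 0.294), with 23.3 to 25.6 CPM against 26.1 to 30.2 CPM in the control, and -0.06 ± 0.08 at 250 nM. HSPA12A, a distant relative of Hsp70, had -0.22 ± 0.09 at 50 nM (edgeR adjusted p = 0.253) and -0.11 ± 0.09 at 250 nM. For HSPA14 and HSPA12A the 50 nM and control libraries did not overlap. The same was true of 19.0% of all genes tested, 10.1% lower and 8.88% higher.

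HSPA6, a strictly stress-inducible Hsp70 in humans, is described here because of its values. It had 25, 21 and 19 units in the control, 57, 48 and 41 units at 50 nM and 43, 6 and 58 units at 250 nM. All 50 nM libraries were above all controls, but 1 library at 250 nM was below them, and all these counts are low. The test did not pass at 50 nM (log2 fold change 1.33 ± 0.57, interval 0.13 to 2.54, edgeR adjusted p = 0.256) or at 250 nM (0.71 ± 0.57, edgeR adjusted p = 0.82). HSPA12B, an Hsp70 relative studied mainly in endothelium, had 18, 25 and 15 units in the control, 0, 18 and 5 units at 50 nM and 2, 2 and 5 units at 250 nM. Each 250 nM library was thus below 12 units, taken here as 3 fragments. With such low counts the fitted fold is no measure of the size of the change (edgeR adjusted p = 0.557 at 50 nM and 0.389 at 250 nM).

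The Hsp110 exchange factors, large relatives of Hsp70 that help to dissolve aggregates, showed unequal values. HSPH1, a heat-inducible member, had 56.9, 61.5 and 66.1 CPM in the control, 52.5, 54.0 and 49.6 CPM at 50 nM and 54.4, 56.1 and 52.0 CPM at 250 nM. Both estradiol groups lay below every control library. The log2 fold change was -0.24 ± 0.07 at 50 nM (interval -0.39 to -0.10, edgeR adjusted p = 0.0692) and -0.18 ± 0.07 at 250 nM (interval -0.33 to -0.04, edgeR adjusted p = 0.402). HSPH1 passed at 50 nM in DESeq2 (adjusted p = 0.0209), where 6.31% of the 11126 genes given an adjusted p passed (3.34% higher and 2.97% lower), and with edgeR when control replicate 1 was left out (adjusted p = 0.0383).

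HSPA4L, a second Hsp110 gene, had 27.7, 28.2 and 30.7 CPM in the control, 28.0, 24.5 and 22.5 CPM at 50 nM and 27.6, 24.5 and 23.9 CPM at 250 nM. 1 library at 50 nM lay within the control range, all 250 nM libraries lay below it, the highest of them narrowly, and the log2 fold changes of -0.21 ± 0.09 and -0.19 ± 0.09 did not pass (edgeR adjusted p = 0.256 and 0.576). HSPA4, the most abundant of the class, had 447 to 468 CPM at 50 nM, against 423 to 454 CPM in the control, and a log2 fold change of 0.05 ± 0.05 (edgeR adjusted p = 0.695). Whether HSPH1 and HSPA4 differed from each other in their response was not tested.

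BAG3, an exchange factor for Hsp70 that links it to small heat shock proteins and to autophagy of damaged muscle filaments, had 94.4, 104 and 95.3 CPM in the control, 91.6, 91.2 and 90.05 CPM at 50 nM and 93.4, 98.0 and 91.3 CPM at 250 nM. The 50 nM libraries were all below the controls, by little: the log2 fold change was -0.11 ± 0.06 at 50 nM (interval -0.23 to 0.02, edgeR adjusted p = 0.41) and -0.05 ± 0.06 at 250 nM. HSF1 had 32.8, 32.8 and 33.7 CPM in the control, 31.1, 31.4 and 33.6 CPM at 50 nM and 31.0, 35.7 and 33.0 CPM at 250 nM. Its groups overlapped, and the intervals were -0.20 to 0.10 at 50 nM and -0.14 to 0.15 at 250 nM. HSF2, a second heat shock factor that can pair with HSF1, had 9.34, 8.95 and 7.83 CPM in the control, 6.28, 6.92 and 7.39 CPM at 50 nM and 6.60, 6.36 and 8.47 CPM at 250 nM. The 50 nM libraries lay below the controls, but the log2 fold change of -0.34 ± 0.13 did not pass (interval -0.62 to -0.07, edgeR adjusted p = 0.196), and neither did the value at 250 nM (-0.28 ± 0.13, edgeR adjusted p = 0.562).

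HSP90B1 folds secreted and membrane proteins such as integrins in the endoplasmic reticulum. It had 1301, 1389 and 1389.8 CPM in the control, 1384, 1339.6 and 1360.2 CPM at 50 nM and 1341, 1365 and 1350.2 CPM at 250 nM, with overlapping groups. The log2 fold change was 0.00 ± 0.05 at 50 nM and -0.01 ± 0.05 at 250 nM, and the intervals of -0.10 to 0.10 and -0.11 to 0.09 leave out a fall as large as the estimate for HSPA8 at 50 nM.

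The small heat shock proteins, which hold unfolded proteins without ATP, did not pass in any comparison. The highest per length was HSPB6, a protein linked to smooth muscle relaxation, with 50.0, 42.3 and 40.7 CPM in the control, 41.4, 44.7 and 45.0 CPM at 50 nM and 43.5, 46.8 and 49.9 CPM at 250 nM. Its groups overlapped, with log2 fold changes of -0.02 ± 0.08 and 0.08 ± 0.08. HSPB8, the partner of BAG3, had -0.04 ± 0.07 at 50 nM and -0.03 ± 0.07 at 250 nM. HSPB3 and HSPB11 were less precise, with standard errors near 0.20, and HSPB7 stayed at 16 to 46 units per library.

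Of the 32 DNAJ genes, 28 were tested and 0 passed in any of the 3 comparisons, with edgeR or with DESeq2. Of all genes, edgeR called 3.25% at 50 nM, 0.308% at 250 nM and 0.325% between the concentrations. DESeq2 called 6.31%, 1.14% and 0.804% of the genes given an adjusted p. With such shares, 0 calls among 28 genes do not set the DNAJ genes apart. At 50 nM 11 members of all families had an unadjusted edgeR p under 0.05, 22.9% of those tested against 15.6% of all genes; among the DNAJ genes these were DNAJC28, DNAJB4 and DNAJA1. DNAJB4, a cytosolic J protein that serves Hsp70, had 76.2, 82.1 and 92.1 CPM in the control, 75.3, 68.0 and 73.2 CPM at 50 nM and 80.7, 68.9 and 83.7 CPM at 250 nM. All 50 nM libraries were below the lowest control (log2 fold change -0.21 ± 0.08, edgeR adjusted p = 0.214).

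DNAJA1, a cytosolic class A J protein, had 40.2, 39.3 and 49.4 CPM in the control, 37.3, 35.8 and 38.5 CPM at 50 nM and 45.0, 37.7 and 46.0 CPM at 250 nM. Replicate 3 was the highest control, the 50 nM libraries lay below all controls, and the log2 fold change was -0.21 ± 0.09 at 50 nM (edgeR adjusted p = 0.294) and 0.00 ± 0.09 at 250 nM. DNAJA2, the class A gene with the highest level per length, had 179 to 198 CPM in the control, 177 to 189 CPM at 50 nM and 168 to 183 CPM at 250 nM, and its values of -0.05 ± 0.06 and -0.10 ± 0.06 did not pass. DNAJB2, which sorts clients to the proteasome, had 18.6, 17.9 and 19.0 CPM in the control, 17.6, 17.5 and 15.6 CPM at 50 nM and 20.8, 19.1 and 18.1 CPM at 250 nM. Its 50 nM libraries lay below those of both other groups, yet neither difference passed (edgeR adjusted p = 0.508 and 0.788).

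Among the DNAJC genes, DNAJC5, the cysteine string protein of secretory vesicles, had 34.7, 35.6 and 34.5 CPM in the control, 35.5, 31.5 and 35.1 CPM at 50 nM and 33.1, 35.7 and 36.5 CPM at 250 nM, without separation of the groups. DNAJC28 had the lowest value of the family at 50 nM, -0.51 ± 0.19, at 2.00 to 2.81 CPM, against 2.75 to 3.82 CPM in the control; the ranges overlapped and the test did not pass (edgeR adjusted p = 0.183). DNAJC30, a mitochondrial J protein, had the highest value, 0.22 ± 0.11 (edgeR adjusted p = 0.339), and its libraries of 7.57 to 8.58 CPM at 50 nM did not overlap with 6.64 to 7.30 CPM in the control. DNAJC3, a J protein of the endoplasmic reticulum that assists BiP, had 50.4, 54.3 and 55.6 CPM in the control, 55.01, 49.1 and 48.1 CPM at 50 nM and 57.8, 56.8 and 53.7 CPM at 250 nM. These groups overlapped (edgeR adjusted p = 0.686 and 0.861 against the control). DNAJC16 ranged from 48.3 to 57.4 CPM in the control, 44.8 to 51.0 CPM at 50 nM and 48.4 to 53.6 CPM at 250 nM, with no comparison passing.

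**Figure D3:**
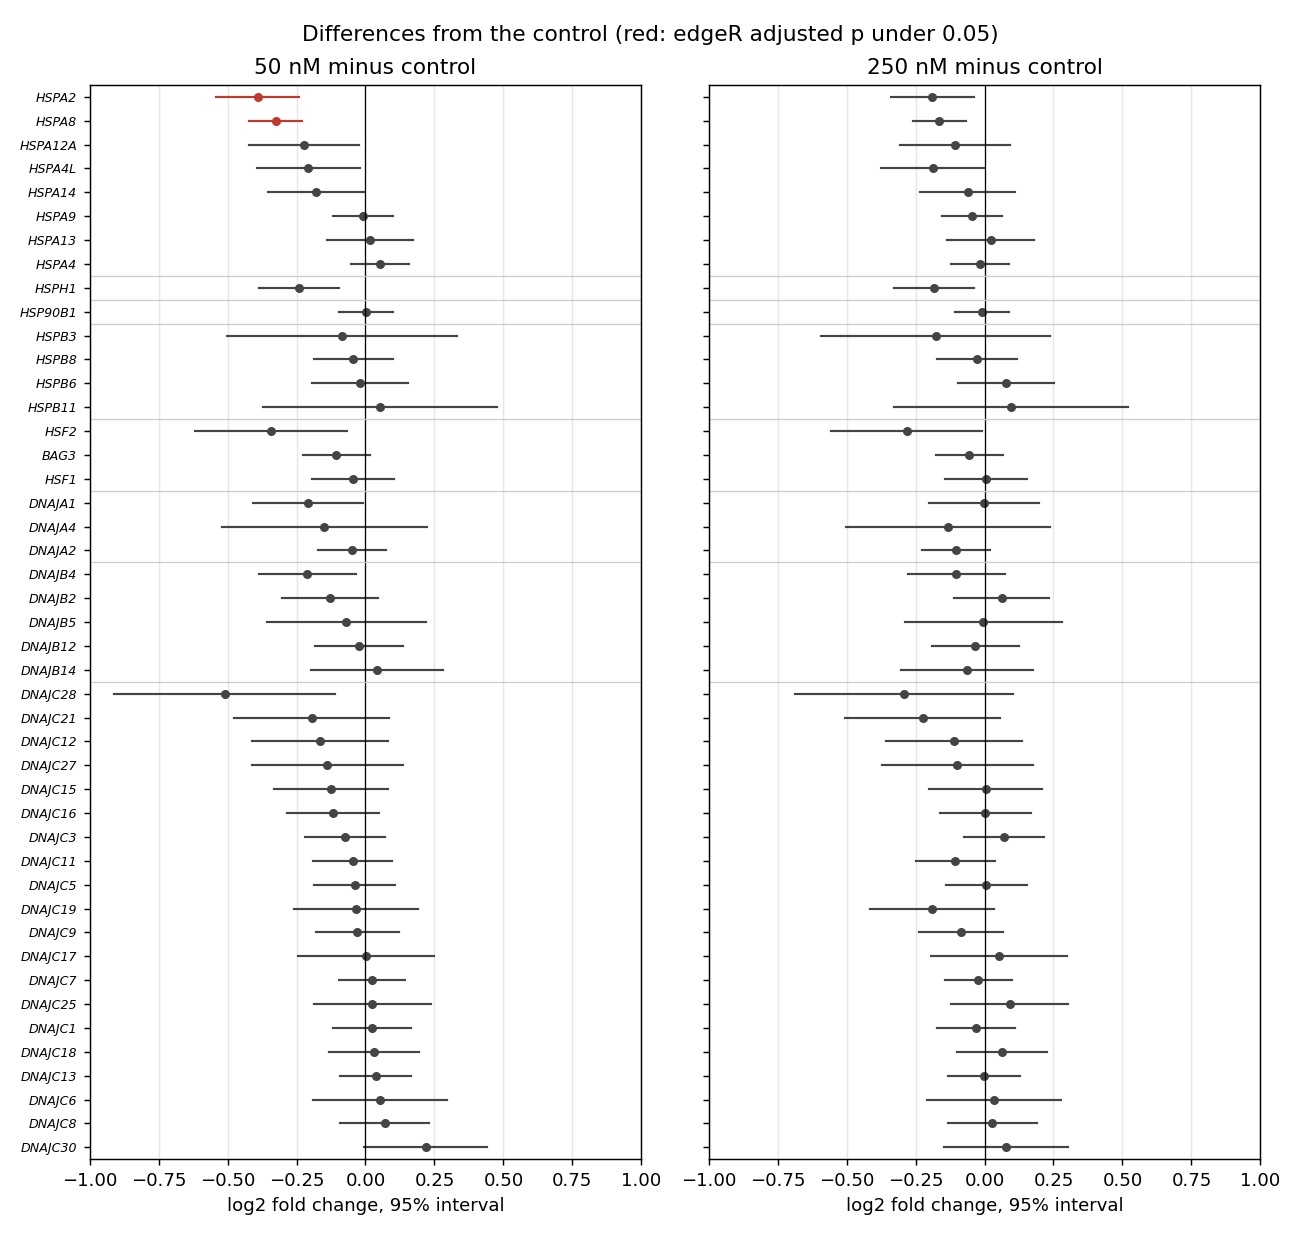
Log2 fold change from the control with its unadjusted 95% interval at 50 nM (left) and 250 nM (right) for 45 of the 48 tested members, grouped by family; red marks an edgeR adjusted p under 0.05. HSPA6, HSPA12B and HSPB7, with few counts and wide intervals, are not drawn. HSPA2 and HSPA8 are red at 50 nM, and no member is red at 250 nM.

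Taking the tested members as a list, the median log2 fold change at 50 nM was -0.05, against 0.00 over all genes tested, and 32 of 48 values (66.7%) were below 0, against 50.6% of all genes. The 50 nM and control libraries did not overlap for 13 members (27.1%), 11 lower and 2 higher, against 19.0% of all genes, where 10.1% were lower and 8.88% higher. The filter on low counts asks for 3 libraries, so a weakly expressed member could be tested through its highest group alone. At 250 nM the median was -0.03, 31 of 48 values were below 0 (64.6%, against 51.8% of all genes), and 5 members (10.4%) did not overlap with the control, all lower, against 15.5% of all genes, where 7.76% were lower and 7.75% higher. These 5 include HSPA12B, with 18, 25 and 15 units in the control and 2, 2 and 5 units at 250 nM. The filter kept HSPA12B mainly through its control libraries, so its lower place there is no result in itself. The comparisons at 50 nM and 250 nM share the control libraries, so their values are not independent of each other.

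Sorted by where the proteins are best known to work, 18 of 22 tested cytosolic members had a value below 0 at 50 nM, with a median of -0.14, both called genes among them. Of the 7 members of the endoplasmic reticulum 2 were below 0, with a median of 0.02 and values of -0.07 to 0.04. Of the 5 mitochondrial members 4 were below 0, with a median of -0.03. Of the 6 nuclear members 4 were below 0, with a median of -0.04. Of the 4 members without an assigned place 3 were below 0, with a median of -0.13, near the cytosolic one. The cilium, clathrin, endosome and vesicle groups held 1 tested member each. At 250 nM 18 of 22 cytosolic members were below 0, with a median of -0.08. In the endoplasmic reticulum 4 of 7 were, with a median of -0.01. The medians were -0.04 for the mitochondrial and for the nuclear members, and -0.05 for those without an assigned place. The sorting was made with results of these data known, and the difference between compartments was not tested.

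Summed over the 53 genes, the level was 5413 to 5664 CPM in the control, 5021 to 5237 CPM at 50 nM and 5253 to 5326 CPM at 250 nM. The control libraries lay above the others, and the mean at 50 nM was 7.69% below that of the control. Without HSPA8 the sum was 3623 to 3751 CPM at 50 nM, against 3621 to 3823 CPM in the control, with overlapping ranges and means 1.61% apart. HSPA8 made up 32.4% to 33.1% of the summed level in the control, 27.9% to 28.5% at 50 nM and 30.4% to 31.0% at 250 nM. The 32 DNAJ genes together had 1071 to 1128 CPM in the control, 1037 to 1107 CPM at 50 nM and 1045 to 1093 CPM at 250 nM, and these ranges overlapped.

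**Figure D4:**
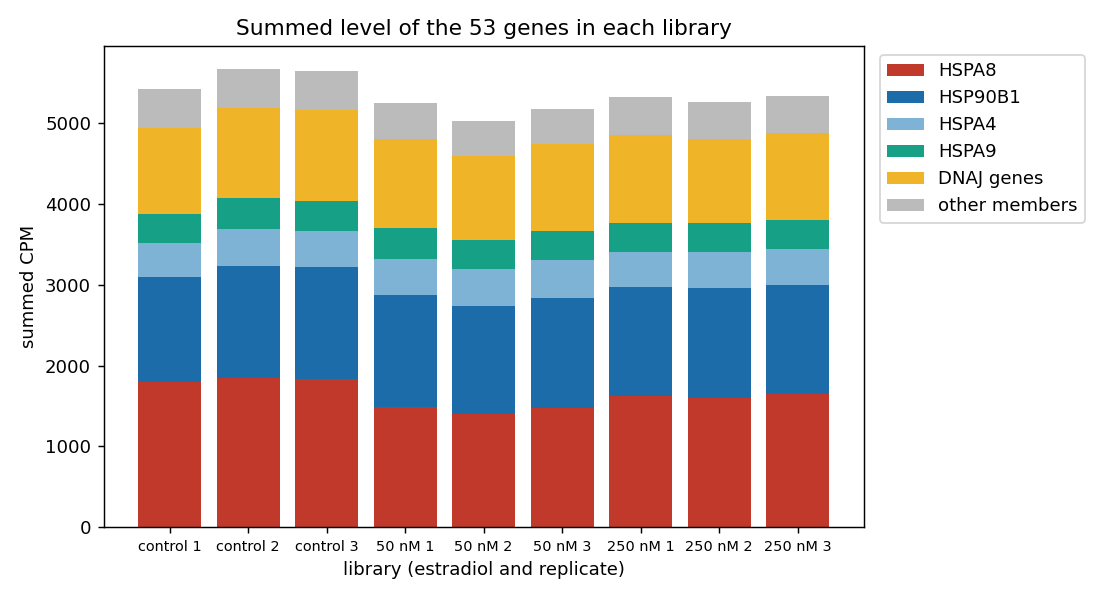
Summed CPM of the 53 genes in each library as stacked bars from 0, split into HSPA8, HSP90B1, HSPA4, HSPA9, the DNAJ genes and the other members. The HSPA8 part is lowest at 50 nM and highest in the control, while the part above it varies by little.

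Between 250 nM and 50 nM, 5 members (10.4%) did not overlap, against 11.5% of all genes, where 5.94% were higher and 5.57% lower. HSPA8, HSPA2, HSPA12A and DNAJB2 were higher at 250 nM than at 50 nM in every library, and HSPA4 was lower. A value below 0 was found for 19 of 48 members (39.6%), against 51.2% of all genes. In the order of group means, the control was highest and 50 nM lowest for 16 members, and 250 nM was highest and 50 nM lowest for 7. The control was highest and 250 nM lowest for 9, and each other order held for 4 or 6 members.

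Genes that work with these chaperones, in lists of known roles, did not pass at either concentration or between the concentrations with edgeR. This held for 19 cochaperones of Hsp90 and Hsp70 (median log2 fold change -0.02 at 50 nM, lowest edgeR adjusted p = 0.0815), 13 genes of the chaperonin CCT and prefoldin (-0.01), 6 genes of mitochondrial protein quality control (0.01), 11 further genes linked to HSF1 (-0.04) and 30 proteasome and ubiquitin ligase genes (0.00). At 250 nM the medians of these lists lay between -0.05 and -0.02. Of all genes tested, edgeR called 3.25% at 50 nM, 0.308% at 250 nM and 0.325% between the concentrations. Lists of 6 to 30 genes could thus hold 0 calls without differing from other genes. The lists were incomplete: 19 of 32 cochaperones and 6 of 13 mitochondrial genes had a row. So did 13 of 14 chaperonin and prefoldin, 12 of 17 HSF1-linked and 30 of 34 proteasome and ubiquitin ligase genes. Of the pair of endoplasmic reticulum genes kept out by the rule, DNAJB9, a J protein induced by the unfolded protein response, fell at 50 nM (-0.32 ± 0.08, edgeR adjusted p = 0.0405), while HSPA5, the chaperone BiP, had -0.05 and did not pass.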

How the data were processed

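For each of 9 libraries the authors deposited gene tables with estimated counts and with FPKM values. The submitters' processing notes list TopHat2 2.1.1, Cuffdiff, Cufflinks and Trim Galore; the step each served, the build and the gene models were not given in the sources used here. Columns were matched to samples by group and number. The deposited counts are whole numbers, so no rounding was needed. Of their values from 1 to 12, 42.2% were 4, 8 or 12, and the unit of 4 per fragment is inferred from this alone. Of the 53 member symbols, 52 were found in a RefSeq gene table of the assembly mOryCun1.1, used for names only. With counts divided by 4, libraries of a group differed by more than sampling noise, and none were merged.

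All genes were fitted together: edgeR 4.0.16 in R 4.3.3, filterByExpr (minimum count 10), TMM factors, quasi-likelihood test on all 9 libraries, Benjamini-Hochberg adjustment over 12324 genes in each of the 3 comparisons. Intervals are not adjusted. Members and lists were chosen with earlier results of these data known. Named in full by rule are members past the threshold, the 6 of lowest p in each comparison, HSF1, HSF2, BAG3 and the member of highest FPKM in each family. Outside that rule HSPA6 was described because of its values, and DNAJC30 as the highest value of its family at 50 nM. Further members, HSPA14 and HSPA12A among them, were given in less detail. Alternatives used DESeq2 1.42.0, limma 3.58.1 (voom, and log2(FPKM + 1) or log2(FPKM + 0.1)), other factors and filters, a replicate block and left-out libraries. Data were also simulated for 50 nM against control (12185 genes tested). There 54 of 100 changes of 0.35 and 93 of 100 of 0.7 (log2) were recovered. The changes were placed only in genes above a minimum mean CPM, so these shares do not cover HSPA6, HSPA12B or HSPB7. The simulation also gave 20 false calls, a larger share of its calls than the adjusted p threshold is meant to allow. False calls among the results above may thus be more frequent than the threshold states. Strand use in counting is not given, so genes that overlap, or that are nearly identical, may have shared fragments.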

Additional observations from a re-analysis of the deposited data

How the results depend on the processing

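HSPA8 and HSPA2 were called lower at 50 nM in all alternatives and with an adjusted p under 0.01. At most 1 further member, HSPH1, was called there, by DESeq2 and without control replicate 1. DESeq2 called 1 member (HSPA8) at 250 nM against the control and 1 (HSPA8) between the concentrations, in both cases with 0 called by edgeR; the cause was not tested. Leaving out single libraries gave 2 to 3 members at 50 nM and 0 in the other comparisons. Over all tested genes, same-numbered libraries showed no shared deviation from their group means (correlation -0.03 to 0.04). Noise of weakly expressed genes can hide a block in this measure, so pairing by number is not excluded. With the replicate block the counts of members stayed at 2, 0 and 0, and those of all genes were 492, 43 and 42, against 401, 38 and 40.

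Counts over all genes moved by more than 1.5 times in several settings. At 50 nM they were 702 with DESeq2, 234 on unfiltered log2(FPKM + 1), 244 with the 2 groups alone and 145 at an adjusted p under 0.01; single left-out libraries gave 187 to 564. At 250 nM DESeq2 gave 140, FPKM values 4, an adjusted p under 0.01 gave 11, and left-out libraries 5 to 56. Between the concentrations DESeq2 gave 99, FPKM values 11 to 26 and left-out libraries 21 to 50. Among left-out libraries, control replicates 2 and 3 and 50 nM replicates 1 and 2 moved the count at 50 nM that far, to 255, 187, 213 and 211.

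Members that did not pass, most of them near 0, changed sign in some settings; the cause was not tested. On log2(FPKM + 1), with or without a filter, and on log2(FPKM + 0.1), HSP90B1 had -0.0500 and -0.0501 at 50 nM. The same scales gave, at 250 nM, -0.0336 and -0.0351 for DNAJC16, -0.0341 and -0.0347 for DNAJC5 and -0.0345 and -0.0359 for HSF1. Between 250 nM and 50 nM they gave 0.00249 and 0.00249 for HSP90B1. Over all genes, filtered log2(FPKM + 1) and log2(FPKM + 0.1) had medians of -0.0409 and -0.0520 at 50 nM, against -0.00196 on counts. At 250 nM these medians were -0.0334 and -0.0414, against -0.00471 on counts. Between the concentrations they were 0.00822 and 0.0102, against -0.00278 on counts. HSP90B1 at 50 nM had -0.000891 without a filter and -0.00145 with the 2 groups alone, DNAJC16 at 250 nM had -4.19e-05 with the 2 groups alone, and DNAJA1 at 250 nM had 0.00164 with voom.

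With single libraries left out, the log2 fold change at 50 nM ranged from -0.0695 to 0.0138 for DNAJC5, from -0.0301 to 0.0168 for HSP90B1 and from -0.0783 to 0.0760 for HSPB6. At 250 nM it ranged from -0.0630 to 0.110 for DNAJA1, from -0.0454 to 0.0823 for DNAJC16, from -0.0224 to 0.0463 for DNAJC5, from -0.0493 to 0.0540 for HSF1 and from -0.0396 to 0.00731 for HSP90B1. Between 250 nM and 50 nM it ranged from -0.00735 to 0.0838 for DNAJC5, from -0.00224 to 0.0996 for HSF1, from -0.0823 to 0.137 for HSF2, from -0.0209 to 0.00250 for HSP90B1 and from -0.0497 to 0.109 for HSPA4L. HSPA12B, which did not pass, is not near 0 in that comparison: its fitted value was -1.41 and ranged from -1.97 to 0.0383 with single libraries left out, but it rests on 0 to 18 units per library and is no measure of size.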
